A study of Homo sapiens with 15 samples.

Results

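The MYC and MAX network is a family of basic helix-loop-helix leucine zipper transcription factors, described here by where DNA G-quadruplex signal lay at its genes. The 10 members were taken by name: MYC, MYCL and MYCN, MAX, the MXD proteins MXD1, MXD3, MXD4 and MXI1, and the larger MAX partners MNT and MGA, out of 19768 protein-coding genes. For each gene, the regions and peaks within 1 kb of an annotated start site or inside the gene were collected, which gave 17 of the 8955 high-confidence regions of the series. For MYC the 1 kb around its far upstream element, taken as 1500 bp upstream of the canonical start, was searched as well. Chromatin of K562 cells, an established human chronic myelogenous leukaemia line, was fixed with formaldehyde and precipitated with BG4, an antibody against G-quadruplexes. From the sample titles, 1a and 1c were taken as technical libraries of biological replicate 1 and 2a, 2b and 2c as those of replicate 2, 5 libraries in all. The labels name no treatment and a single kind of cell, so there was no comparison between conditions and no test was run. A single cell line was used, and its identity was not checked here because the lists hold positions and no expression values.

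MAX is the hub of the network: MYC, MYCL and MYCN bind DNA and activate genes as dimers with MAX, at the E-box sequence CACGTG and its variants. MXD1, MXD3, MXD4, MXI1 and MNT also pair with MAX, occupy the same kind of site and repress through the SIN3 corepressors, and MGA joins MAX in a Polycomb-like repressor complex. The MYC promoter is a textbook case of a G-quadruplex, a stacked fold of guanine-rich DNA, in its nuclease hypersensitive element upstream of the P1 start.

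The lists held between 8059 and 12495 peaks per library, and how many reads lie behind them is unknown. Fold enrichment is the peak caller's ratio of the pileup at a peak's summit over what it expects there, given as the authors deposited it. Its median was 6.03 to 6.78 over the lists, and its percentile is the share of peaks of the same list at or below the value. Peaks of the list labelled 2a are named with the letter c and those of 2c with the letter a. The labels were followed, and values of 2a and 2c could be exchanged. Libraries of a replicate are not independent, so means are over the 2 biological replicates.

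The sequences below carry the pattern of this gene set, since they come from the promoter regions of MYCL, MXD4 and MXD3 that hold a canonical motif, from promoter regions of MXD1, MAX and MNT that do not, and from introns of MNT that do. They were read from GRCh37 outside annotated UTRs, 5′ to 3′ on the strand with the motif, or on the gene's strand where there was none. Capitals mark a canonical G4 motif, in which 4 runs of at least 3 G are parted by 1 to 7 bases, or the E-box CACGTG. The stretches are chr1:40367592-40367804 (plus strand) for MYCL, chr4:2263837-2264136 (plus) for MXD4, chr5:176738933-176739105 (minus) for MXD3 and chr2:70141873-70142172 (plus) for MXD1. Those of MAX and MNT are chr14:65569509-65569579 (minus), chr17:2304462-2304560 (minus, MNT promoter), chr17:2302840-2303108 (minus, MNT intron near the start) and chr17:2297130-2297308 (plus, MNT intron farther in).
MYCL promoter: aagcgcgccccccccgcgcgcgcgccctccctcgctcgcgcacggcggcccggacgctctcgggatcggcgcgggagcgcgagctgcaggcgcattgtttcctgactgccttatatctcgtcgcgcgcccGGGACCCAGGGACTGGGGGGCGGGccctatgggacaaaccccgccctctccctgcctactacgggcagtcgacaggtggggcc
MXD4 promoter: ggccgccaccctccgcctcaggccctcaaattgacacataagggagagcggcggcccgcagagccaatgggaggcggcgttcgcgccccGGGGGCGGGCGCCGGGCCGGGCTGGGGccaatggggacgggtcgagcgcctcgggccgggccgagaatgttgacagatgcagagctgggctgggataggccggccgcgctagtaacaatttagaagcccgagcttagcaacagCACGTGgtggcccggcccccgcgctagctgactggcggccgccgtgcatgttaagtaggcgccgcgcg
MXD3 promoter: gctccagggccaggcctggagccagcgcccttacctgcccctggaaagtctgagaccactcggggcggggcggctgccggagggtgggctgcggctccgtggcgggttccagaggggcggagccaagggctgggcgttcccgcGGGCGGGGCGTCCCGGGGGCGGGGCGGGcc
MXD1 promoter: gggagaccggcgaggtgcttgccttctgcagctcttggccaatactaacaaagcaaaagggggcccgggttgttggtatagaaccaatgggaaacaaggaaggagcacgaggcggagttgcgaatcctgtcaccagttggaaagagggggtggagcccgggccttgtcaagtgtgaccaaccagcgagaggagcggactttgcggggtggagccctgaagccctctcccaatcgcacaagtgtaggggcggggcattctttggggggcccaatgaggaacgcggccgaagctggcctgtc
MAX promoter: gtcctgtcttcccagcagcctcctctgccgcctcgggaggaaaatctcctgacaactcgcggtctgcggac
MNT promoter: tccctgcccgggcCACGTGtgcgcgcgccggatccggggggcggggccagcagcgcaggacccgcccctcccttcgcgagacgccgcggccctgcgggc
MNT intron near the start: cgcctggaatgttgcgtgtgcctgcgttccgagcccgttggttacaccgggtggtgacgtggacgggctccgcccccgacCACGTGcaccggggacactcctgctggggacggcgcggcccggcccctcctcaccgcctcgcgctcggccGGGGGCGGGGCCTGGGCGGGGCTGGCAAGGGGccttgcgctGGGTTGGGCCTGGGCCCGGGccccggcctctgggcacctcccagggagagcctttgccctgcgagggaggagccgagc
MNT intron farther in: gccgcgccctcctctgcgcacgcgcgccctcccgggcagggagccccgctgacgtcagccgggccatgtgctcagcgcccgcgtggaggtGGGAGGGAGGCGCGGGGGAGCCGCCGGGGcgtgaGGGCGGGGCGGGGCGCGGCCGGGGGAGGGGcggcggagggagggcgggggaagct

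A high-confidence region lay within 1 kb of a start site in 9 of the 10 members, and MYCN was the exception. Among all protein-coding genes 34.9% had such a region, and of the 14925 that had a strict CpG island at a start site, 45.4% did. All 10 members had a strict island, as did 75.5% of all genes and 98.3% of genes with a promoter region. Of the members 7 had at least 3 annotated start sites, where the median of all genes was 3. Of island genes with at least 3 start sites, 49.9% had a region. Counting regions inside the gene as well left the number of members at 9, against 37.7% of all genes. A promoter peak was found in at least 1 library in 9 members (47.7% of all genes) and in all 5 libraries in 4 members, MYCL, MXD1, MXD3 and MXD4 (23.1% of all genes). Promoters of the other 5 members with a region were found in 3 or 4 libraries. With library 2a left out, 7 members had a promoter peak in all the others, as did 25.4% of all genes. Without 1c these were 5 members (25.7% of all genes), and they were 4 without 1a (23.7%), without 2b (24.4%) or without 2c (23.4%). Replicate 1 had promoter peaks at 9 members in 1a (38.6% of all genes) and at 7 in 1c (32.7%). Replicate 2 had them at 6 members in 2a (32.0%), at 8 in 2b (35.5%) and at 9 in 2c (39.1%).

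**Figure D1:**
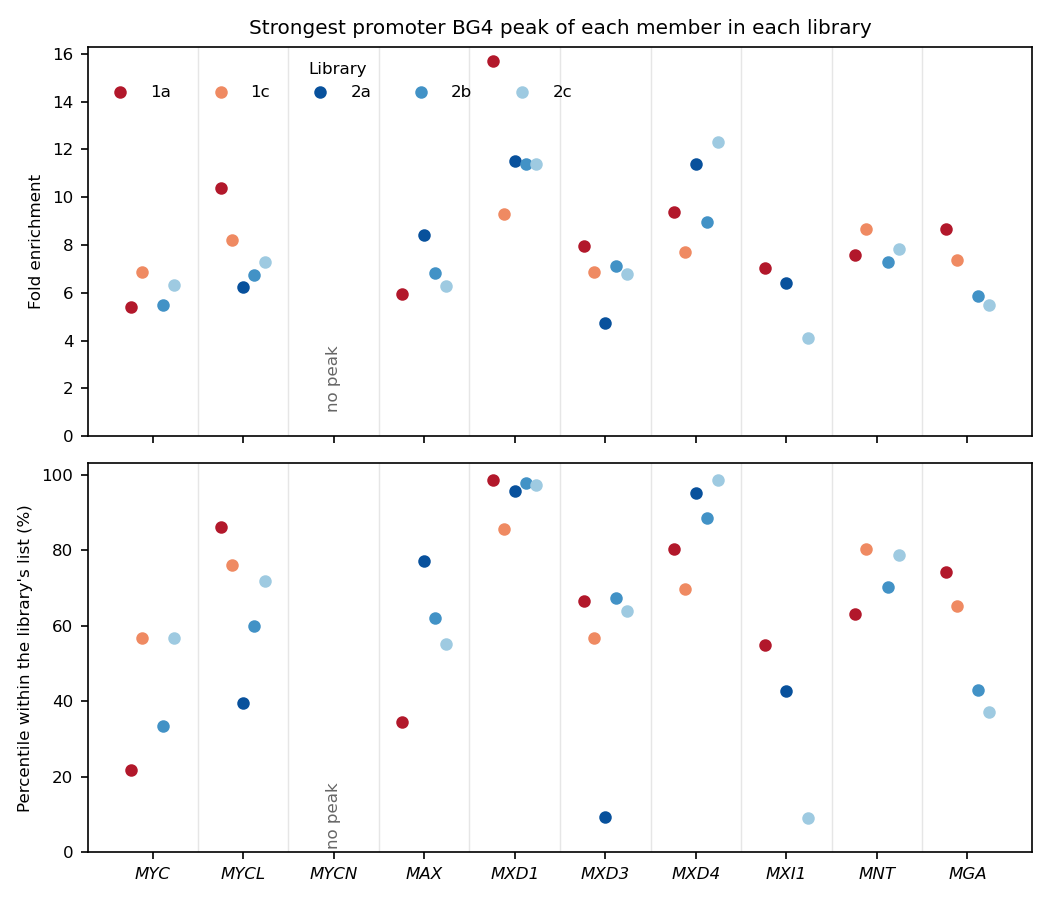
Fold enrichment of the strongest promoter peak (top, peak caller's ratio) and its percentile among the peaks of the same library (bottom) for the 10 members, with 1 point per library. MXD1 (9.30 to 15.7) is highest in 1a, 1c, 2a and 2b and MXD4 (7.71 to 12.3) in 2c, but MXD4 is below MYCL in 1a and below MNT and MYCL in 1c. MYC has no point for library 2a, and MYCN has none at all.

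Among the activators, MYC, the oncoprotein that drives growth and ribosome production, had a narrow region of low to middle rank among its start sites. The region (chr8:128748363-128748456, gene ENSG00000136997) was 94 bp wide and ran from 114 to 21 bp upstream of the canonical start, ending 10 bp short of the nearest annotated start. All 94 bp were coding sequence of an annotated longer transcript. Fold enrichment was 5.40 (1a) and 6.86 (1c) in replicate 1 and 5.47 (2b) and 6.34 (2c) in replicate 2, and 2a had no peak. The replicates overlapped. Its percentile within the lists was 42.2 ± 4.14 (SD, n = 2), so it ranked at or above 20.6% of the genes with a promoter region. Single libraries lay wider apart than this SD, at 21.8 (1a), 56.7 (1c), 33.4 (2b) and 56.8 (2c).

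The canonical motifs of the MYC promoter lay outside the BG4 peaks of all 5 libraries. A pair of canonical motifs, at 308 to 283 bp and 281 to 255 bp upstream of the canonical start, lay on the strand opposite to the gene, where the guanine-rich strand of the nuclease hypersensitive element is known to be. The nearer motif was 141 bp from the region, and no peak of any library overlapped either. The remaining motif, 139 to 161 bp downstream of the start, was not overlapped by a peak either. The 1 kb on either side of the far upstream element, where the single-strand binding protein FUBP1 acts, held no high-confidence region and 1 peak, in library 2c (fold 6.10). That peak lay 960 to 855 bp upstream of the canonical start and 58 bp from an annotated start site, so it was a promoter peak by the rule and more than 500 bp from the position taken for the element. That position came from general knowledge and from no file.

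MYCL, the family member amplified in some small cell lung cancers, had a higher fold than MYC in each of the 4 libraries with a peak at both. It (chr1:40367589-40367804, gene ENSG00000116990) covered 216 bp up to and including the canonical start, mostly in an intron of a longer transcript, and had a GC content of 74.1%. Fold enrichment was 10.4 (1a) and 8.20 (1c) in replicate 1 and 6.26 (2a), 6.75 (2b) and 7.30 (2c) in replicate 2. Both libraries of replicate 1 were above all 3 of replicate 2, and the mean was 8.02 ± 1.78 (SD, n = 2). The motif printed above lay 156 to 133 bp upstream of the start on the opposite strand and was inside the peak of every library.

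MYCN, the neuroblastoma oncogene, had no peak at its promoter or in its gene (chr2:16080672-16087129, ENSG00000134323) in any library. The 1 kb on either side of its start had a GC content of 59.8% and a CpG ratio (observed over expected) of 0.683, inside the range of the other members (55.4% to 73.7% and 0.593 to 0.892), and MYCN had a strict island. It held 1 canonical motif, 123 to 154 bp downstream of the start. Whether MYCN chromatin was open in these cells was not measured here.

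MAX, the shared partner, had 2 narrow promoter regions of modest rank. One (chr14:65569509-65569579, gene ENSG00000125952) was 71 bp wide, lay 96 bp upstream of the nearest start site and was found in 1a, 2a and 2c. The other (chr14:65569294-65569392) was 99 bp wide, lay wholly in annotated UTR and was found in all libraries but 1c. The strongest promoter peak had folds of 5.94 (1a) in replicate 1 and 8.42 (2a), 6.82 (2b) and 6.28 (2c) in replicate 2. The single value of replicate 1 was the lowest, and the percentile was 49.6 ± 21.4 (SD, n = 2). In 1a a single peak reached over both regions, whereas 2a and 2c had a peak for each. Neither region held a canonical motif, although 6 lay within 1 kb of the canonical start, and the motif between both regions was inside the 1a peak alone.

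**Figure D2:**
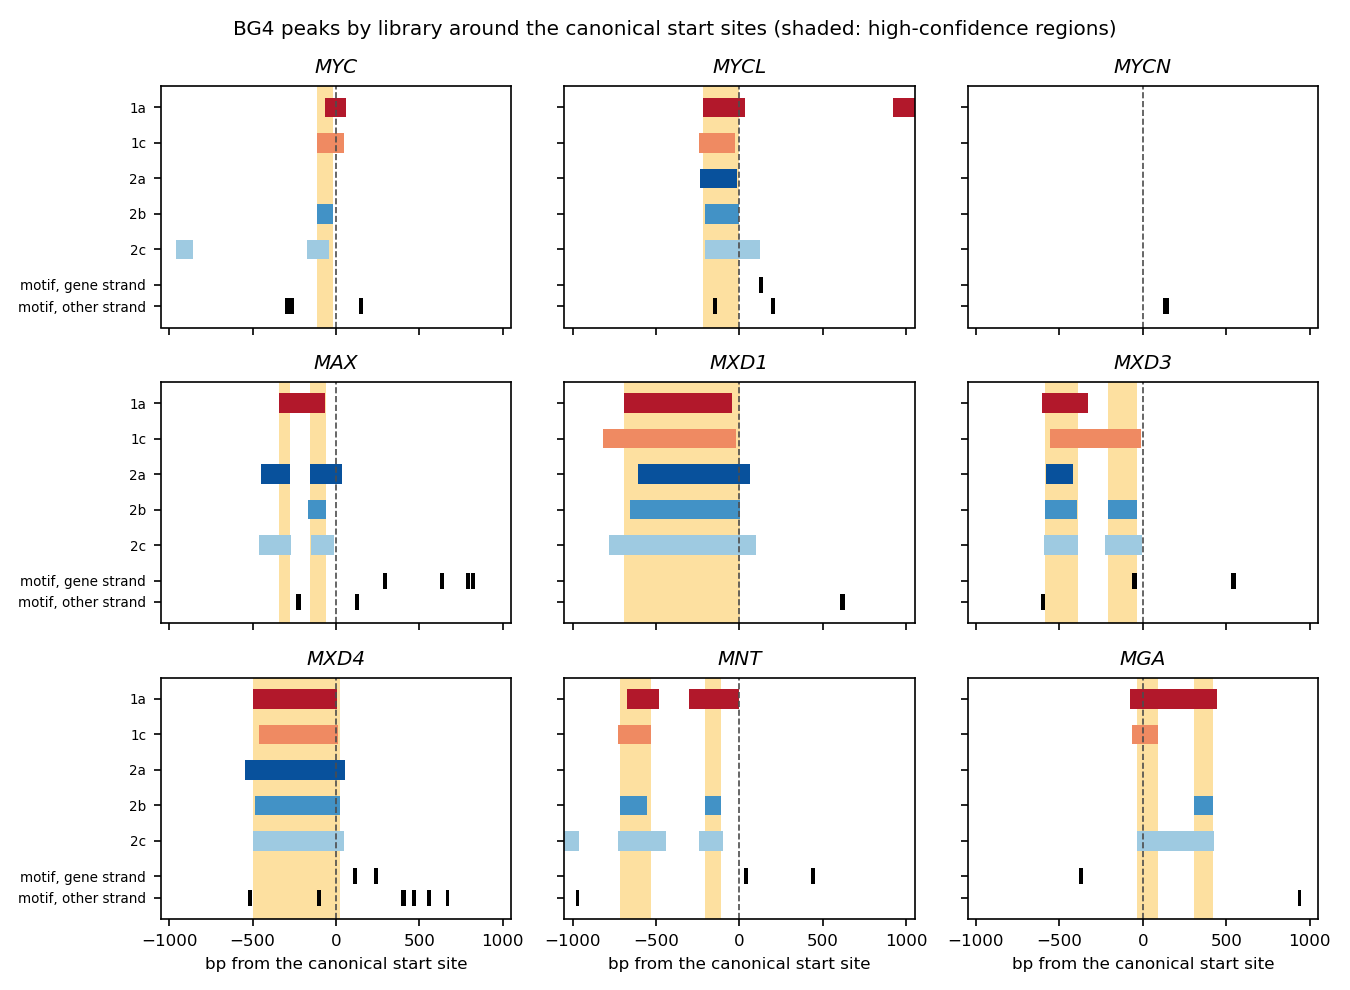
Position of every BG4 peak by library (bars), of the high-confidence regions (shading) and of canonical G4 motifs on the gene's strand and the opposite strand (black) within about 1 kb of the canonical start of 9 members, in bp with negative values upstream. MXI1 is not drawn because its region lay at another promoter. Motifs are inside regions at MYCL, MXD3 and MXD4, and the motif pair of MYC lies upstream of all peaks near the start.

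The MXD repressors, which replace MYC on MAX as cells differentiate, included the strongest promoter peaks of the network. MXD1 had a region of 697 bp (chr2:70141548-70142244, gene ENSG00000059728) that reached from 693 bp upstream of the canonical start to just past it. Fold enrichment was 15.7 (1a) and 9.30 (1c) in replicate 1 and 11.5 (2a), 11.4 (2b) and 11.4 (2c) in replicate 2, so replicate 1 held both the highest and the lowest value. Its percentile was 94.4 ± 3.41 (SD, n = 2), and 96.8% of the genes with a promoter region ranked no higher. This long region, of which part is printed above, held no canonical motif and had a GC content of 64.3%. It held 1 match when loops of up to 12 bases were allowed and 13 when runs of 2 G were enough. The only canonical motif within 1 kb of the start lay 602 to 633 bp downstream, outside every peak.

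MXD4 had a region of 523 bp (chr4:2263811-2264333, gene ENSG00000123933) across its single annotated coding start, with 497 bp outside the gene and 26 bp of UTR. Fold enrichment was 9.39 (1a) and 7.71 (1c) in replicate 1 and 11.4 (2a), 8.98 (2b) and 12.3 (2c) in replicate 2, a mean of 9.71 ± 1.64 (SD, n = 2). The percentile was 69.8 to 98.5, and the values of the replicates overlapped. Its promoter had the highest GC content of the network, 73.7%, which was at or above 99.1% of all promoters, and 8 canonical motifs, the most of any member. Only 1 of these lay inside the region, 116 to 90 bp upstream on the opposite strand, and 6 lay downstream of the start with no peak over them. The region also contained an E-box, the site that MAX dimers bind.

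MXD3, linked to proliferating cells, had 2 regions upstream of the canonical start. The farther one (chr5:176739287-176739483, gene ENSG00000213347) was in the intron of a transcript that starts 275 bp upstream of it, and was found in all 5 libraries. Fold enrichment was 7.97 (1a) and 6.86 (1c) in replicate 1 and 4.73 (2a), 7.14 (2b) and 6.73 (2c) in replicate 2, so that 2a was the lowest, at percentile 9.44 of its list. The nearer one (chr5:176738933-176739105) ended 34 bp from the canonical start, had a GC content of 78.6% and was found in 1c, 2b and 2c, with folds of 6.86, 4.51 and 6.78. In 1c it was part of a single peak of 546 bp over both regions. The canonical motif printed above, 63 to 36 bp upstream on the gene's strand, was in the nearer region.

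MXI1, also known as MXD2, had the least certain region of the network. Its 26 annotated coding start sites spanned 37.2 kb. The region lay 19302 bp downstream of the canonical start, 52 bp past an alternative start. It was 3 bp wide (chr10:111986665-111986667, gene ENSG00000119950), because the peaks of 1a and 2a overlapped by these 3 bp alone. Fold enrichment there was 7.03 in 1a, 6.39 in 2a and 4.09 in 2c, and 1c and 2b had no promoter peak. At the canonical start itself a peak was found in 1a alone, with a fold of 5.94. Without 1a, 2a or 2c the region was lost.

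MNT, a broadly expressed MAX-binding repressor, had 6 regions, the most of the network. A count of 6 or more regions was found in 0.0556% of all protein-coding genes, 11 in number. Of the 6, 2 lay upstream of the start (chr17:2304887-2305067 and chr17:2304462-2304560, gene ENSG00000070444) and 4 in introns. The promoter regions had folds of 6.33 to 8.67 (1a, 1c, 2b and 2c) and 5.89 to 7.57 (1a, 2b and 2c), and 2a had no peak at either. The 4 intronic regions were found in all 5 libraries. Only the last was above the strongest promoter peak in each of 1a, 1c, 2b and 2c. The region 3980 bp into the gene was above that peak in 1a, 1c and 2c and below it in 2b (5.69 against 7.30). The region 1246 bp into the gene was above it in 1a alone, and the one at 7046 bp in 2b alone. At the last intronic region (chr17:2295993-2296339), 8015 bp into the gene, fold enrichment was 9.73 (1a), 11.9 (1c), 10.7 (2a), 11.7 (2b) and 10.1 (2c), at percentiles of 82.8 to 98.2. At the region 3980 bp into the gene (chr17:2300101-2300374) they were 9.19, 13.5, 9.87, 5.69 and 9.94 in the same order, with 2b low. At the regions 1246 bp (chr17:2302840-2303108) and 7046 bp (chr17:2297130-2297308) into the gene they ran from 6.25 to 11.9 and from 4.48 to 7.71. Neither promoter region held a canonical motif, while 3 of the 4 intronic ones held 2 motifs each. Of these 4, the regions 3980 and 8015 bp into the gene also overlapped exons of non-coding transcripts, by 47 and 57 bp. The E-boxes printed above were in a promoter region and in the intronic region nearest the start.

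**Figure D3:**
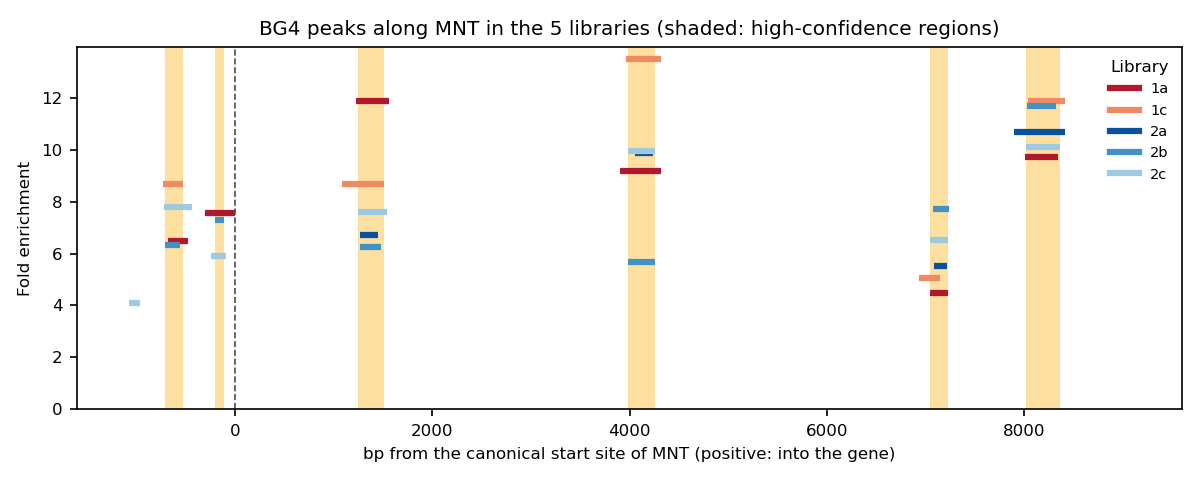
BG4 peaks along MNT: each bar spans a peak from its start to its end in bp from the canonical start (positive values run into the gene) at the height of its fold enrichment, coloured by library, with high-confidence regions shaded. The 4 intronic regions have a peak in all 5 libraries, and library 2a has none at the 2 upstream regions.

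MGA, the largest protein of the network and a scaffold of a MAX repressor complex, had 2 narrow regions at its canonical start. They (chr15:41952571-41952692 and chr15:41952909-41953026, gene ENSG00000174197) were 122 and 118 bp wide, the first over the start with 98 bp of UTR and the second in the intron 306 bp downstream. The strongest promoter peak had folds of 8.68 (1a) and 7.37 (1c) in replicate 1 and 5.86 (2b) and 5.47 (2c) in replicate 2, and 2a had no peak. Both libraries of replicate 1 were above both of replicate 2, and the mean was 6.84 ± 1.67 (SD, n = 2). Single peaks in 1a and 2c covered both regions, 1c had only the first and 2b only the second. The 4 libraries therefore gave 3 at each region. Neither region held a canonical motif. Of the regions outside the rule, the nearest was the promoter of the neighbouring gene MAPKBP1, past the end of MGA, which was found in all 5 libraries. The only other region within 5 kb of a member gene was at the start sites of HAUS3 and POLN, beyond MXD4.

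Within the network, the order by mean percentile was MXD1 (94.4), MXD4 (84.5), MNT (73.1), MYCL (69.1), MGA (54.9), MXD3 (54.3), MAX (49.6), MYC (42.2) and MXI1 (40.3). The SD over the 2 biological replicates ran from 1.87 for MNT to 21.4 for MAX, so neighbours in this order differed by less than the larger SD of each pair. Ranked by −log10 p instead, MYCL (71.5) stood above MNT (64.7) and MXD3 (52.7) above MGA (50.3). Without library 1a, the only one of replicate 1 with a promoter peak at MXI1 or MAX, the percentile of MXI1 was 25.9 and that of MAX 64.8. The median over the 9 members with a region was 54.9, against 59.9 over the 6899 genes with a promoter region. Of the 17 regions 11 were narrower than 205 bp, the median of all regions. A peak in all 5 libraries was found at 8 of the 17 member regions, or 47.1%, against 55% of all regions. These were 4 of the 13 promoter regions (30.8%) and all 4 intronic regions of MNT.

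None of the 13 promoter regions of the network had a start site of another gene within 1 kb, whereas 42.6% of all promoter regions lay within 1 kb of the starts of 2 or more genes. Of the 13, 7 lay wholly upstream of the canonical start and 4 covered a start site. No share of all promoter regions is at hand for these positions. At least 2 promoter regions were found at 4 members, MAX, MXD3, MNT and MGA, and at 4.91% of all genes. These were 970 genes, out of the 6899 with any promoter region. At MAX (1a), MXD3 (1c) and MGA (1a and 2c) a single peak reached over both regions. MXI1 alone had no region within 1 kb of its canonical start among the 9 members with one.

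Canonical motifs were present near all 10 canonical starts, and 68.6% of all promoters of the same length, 1 kb on either side, held one. The 10 promoters held 32 motifs, of which 8 touched a peak of any library and 3 lay inside a region, with no share over all promoters at hand. Of the 17 regions 6 held a motif (35.3%), against 34.7% of all 8940 regions on chromosomes 1 to 22, X and Y. The remaining 11, those of MYC, MAX, MXD1, MXI1 and MGA among them, did not. Split by place, 3 of the 13 promoter regions held a motif (23.1%) and 3 of the 4 intronic regions of MNT did (75.0%). No such split of all regions is at hand. The E-box CACGTG, which reads the same on both strands, was within 1 kb of the start in 5 members, MAX, MXD1, MXD3, MXD4 and MNT, and in 29.2% of all promoters. It lay inside 3 of the 17 regions (17.6%), against 9.11% of all regions. The GC content of the promoter exceeded the median of all genes, 56.0%, in 9 members, with MGA at 55.4% below it. Among genes with a promoter region the median was 59.0%, and MYC (56.9%) and MXI1 (56.3%) were below that as well. Of those genes 81.4% held a canonical motif and 34.7% an E-box within 1 kb of the canonical start.

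**Figure D4:**
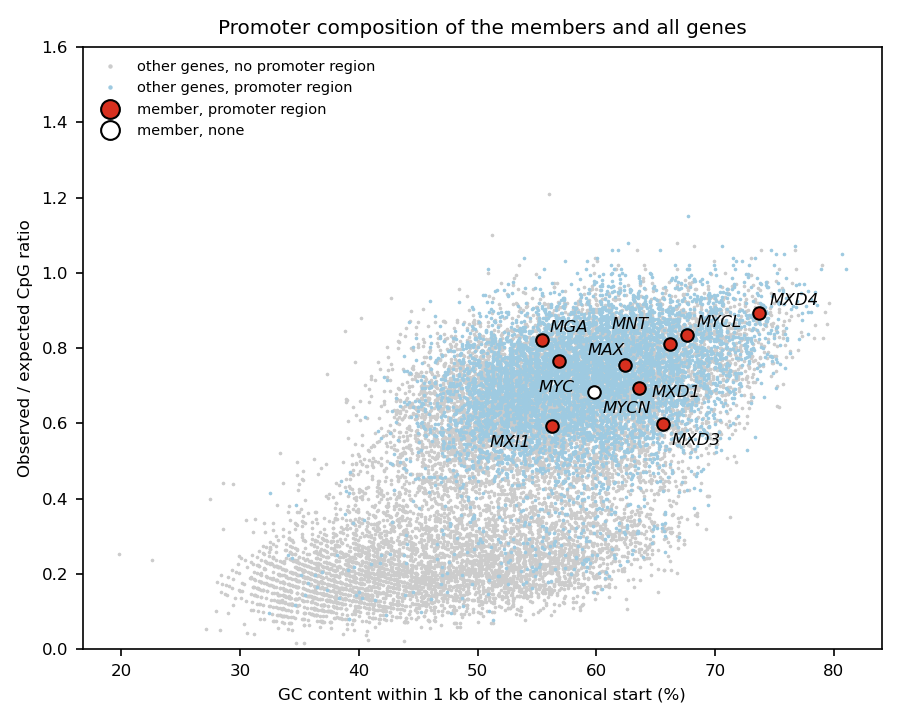
GC content (%) and observed over expected CpG ratio within 1 kb of the canonical start for all 19768 protein-coding genes (grey without and blue with a promoter region) and for the 10 members (large points, red with a region). MYCN, the open point, lies among the members with a region, and MXD4 has the highest GC content of them, 73.7%.

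Of 50 genes that work with the network, 36 had a promoter region (72.0%), whereas 45.4% of all genes with a strict island had one. All 50 had such an island, as did 75.5% of all genes. The lists were chosen with earlier results of these data known, so the 72.0% is not an independent result about these genes. In the extended network all 3 genes had a promoter region, MLXIPL (the glucose-responsive ChREBP), MLXIP and the MAX-like partner MLX, with folds of 5.15 to 12.3, 5.39 to 10.4 and 5.30 to 9.06. Among 9 binders of MYC promoter elements 5 had one, with PUF60, which counteracts FUBP1, NCL (nucleolin) and KHSRP the highest ranked, and FUBP1 and NME1 had no promoter peak. Of 16 cofactors and turnover factors 12 had one. SIN3A, the scaffold that MXD proteins recruit, led them with folds of 9.21 to 13.6, followed by the histone exchange ATPase EP400 (7.78 to 12.7) and the deacetylase HDAC1 (5.82 to 13.7). Of 16 MYC target genes 13 had one, with ODC1 of polyamine synthesis (11.9 to 15.7), FBL of ribosomal RNA processing (7.05 to 9.73 in 4 libraries) and the cell cycle phosphatase CDC25A (6.53 to 10.8) the highest ranked. Of 8 partners of the MGA complex 5 had one, TFDP1, CBX3 and RNF2 among them, and E2F6 and PCGF6 had no promoter peak. NCL and WDR5 are in 2 lists each.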

How the data were processed

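BG4 peaks were called with MACS2 on hg19, per the submitters' processing notes. Not given in the sources used here: its version, the aligner, the control and the filters. In nearly all peaks the deposited score equalled 10 times the −log10 p, cut to an integer. The deposited −log10 p and −log10 q and the fold ratio belong to the authors' peak summits. Percentiles were taken within a list. Folds were also averaged and set side by side between lists, with no correction for differences between them. The median folds of the lists were 6.03 to 6.78. The lowest −log10 p was 5.00 to 5.05. The deposited high-confidence list gave positions only; its 8955 regions matched exactly the bases that 3 or more of the 5 lists share. The mitochondrial chromosome was left out.

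Protein-coding transcripts of GENCODE release 44, mapped to GRCh37, gave the start sites, and the canonical start was the one tagged so there. A region counted with 1 base or more within 1 kb. A strict CpG island had windows of 500 bp, GC share of at least 0.55 and CpG ratio of at least 0.65. Motifs were searched on both strands and wholly inside the window. All members were named; of the other lists, up to 3 genes with the highest mean percentile and the first 2 in alphabetical order without a promoter peak. Members and lists were chosen with earlier results of these data known. Python 3.11.15, pysam 0.24.0 and samtools 1.23.1 were used, and the code was tested on simulated data. Alternatives were stricter peaks, equal list lengths, other windows, overlaps, start sites, motifs and required libraries, ranking by −log10 p or score, and leaving out each library. The 2 K562 input libraries and the 8 HaCaT bisulfite libraries were not analysed here.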

Additional observations from a re-analysis of the deposited data

How the results depend on the processing

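With windows of 500 bp or 2 kb, 9 members had a promoter region and MYCN had none, against 34.1% and 35.7% of all genes. The same 9 remained with 50% of a region inside the window (34.8% of all genes) and with start sites of all transcripts (35.7%). They also remained with regions of both biological replicates (34.0%) and with transcripts not marked as 5′ incomplete (34.7%, chosen after seeing the data). Restricting the lists to −log10 p of 10 or more left 6, without MYC, MXI1 and MGA as well, against 24.9% of all genes, and equal list lengths left 8, against 30.5%. With regions of at least 4 libraries there were 7, against 29.3%. With regions of all 5 libraries there were 4, against 22.1% of all genes. Counting those inside genes as well gave 5, since MNT then counts, and no share of all genes was computed for this. Leaving out 1 library gave 7 to 9 members with a promoter region, against 30.3% to 32.7% of all genes. It also gave 7 to 9 with regions inside genes counted, for which no share of all genes was computed. Without 1a or without 2c, MXI1 and MGA were lost, and without 2a MXI1 was. The members with a promoter peak in all libraries numbered 4 to 7 when 1 library was left out, against 23.4% to 25.7% of all genes, and were 7 without 2a. Members with a peak in any library stayed at 9. For that count the share of all genes was computed over all 5 libraries only, at 47.7%. Of the 17 regions, 8 held a motif with loops of up to 12 bases, 14 with runs of 2 G and 10 with 100 bp added on either side. No share of all regions is at hand for these motif settings, so the counts cannot be read as particular to the members. Ranking by −log10 p or by score in place of fold moved the mean percentile of MYC from 42.2 to 36.9 or 37.4 and of MNT from 73.1 to 64.7 or 65.0, more than their SD. Leaving out 1 library moved MYC to between 33.4 (without 1c) and 50.9 (without 1a). For MNT the range was 68.8 (without 1c) to 77.4 (without 1a). These SDs are of 2 replicate means and leave out the spread between libraries. The cause of these changes was not tested beyond the settings themselves. The depth of the libraries is unknown, so no floor can be given for MYCN. No paired analysis was possible because the groups that share replicate numbers, input and bisulfite libraries, were not used, and no test between groups was run.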

Other observations

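MNT was short for a gene with so many BG4 regions. Of the 11 protein-coding genes with 6 or more regions at start sites or inside the gene, GSE1 had 17 over 507 kb, PLEC 10 over 61.6 kb and ERCC1 9 over 71.5 kb. MNT had 6 over 17.0 kb, or 3.52 per 10 kb, but 2 of the 6 lay upstream, outside that length. Of these genes BBC3, an apoptosis regulator, alone had more for its length counted the same way, with 6 over 11.9 kb (5.02 per 10 kb). These genes were named after their values were seen.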
